A study of Homo sapiens with 2 samples.

Results

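Transcripts of the FOXO transcription factors FOXO1 and FOXO3 and of 8 genes linked to FOXO activity or to cell-cycle exit (CCNG2, YPEL3, YPEL5, BCL6, FBXO32, KLHL24, PIK3IP1 and TXNIP) were compared between stretched and non-stretched Calu-3 cells. The 10 genes were named in advance of this comparison with their differences in these arrays already known, so their values are a description and carry no test. They are 10 of the 19775 genes that the array names by a probe set of their own, and 10 of the 13453 genes measured here. Calu-3 is an established line from a human lung adenocarcinoma and serves as a model of airway epithelium. Both cultures were grown on collagen I-coated flexible plates to about 80% confluence and then given medium with 10% serum. The stretched culture was cycled between 0.7% and 20% stretch, and both are labelled with a time of 18 h. Each condition was measured on 1 array, so each difference below compares these 2 arrays and has no replicate check. The cells come from 1 tumour line, and both cultures carry its alterations.

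FOXO factors are forkhead proteins that bind DNA and switch on genes for cell-cycle arrest, autophagy, protein breakdown and defence against oxidants. Growth factors and insulin restrain them: phosphatidylinositol 3-kinase (PI3K) activates the kinase AKT, which phosphorylates FOXO proteins and moves them out of the nucleus. In cells deprived of growth signals the factors return to the nucleus, and part of the transcript programme of resting cells follows them. FOXO activity is set mainly at the protein level, which these arrays do not measure.

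The platform annotation assigned 40 probe sets to the 10 genes, of which 37 list the gene alone and 3 list FOXO3 together with FOXO3B. The annotation's gene IDs are 2308 for FOXO1, 2309 for FOXO3, 901 for CCNG2, 83719 for YPEL3, 51646 for YPEL5, 604 for BCL6, 114907 for FBXO32, 54800 for KLHL24, 113791 for PIK3IP1 and 10628 for TXNIP. Signals are intensities on a linear scale. Values below the median of an array, 28.7 without and 28.4 with stretch, were set to that median (the floor), and a probe set counts as measured where either array exceeded the floor. Of the 37 probe sets, 32 were measured, 28 of them above the floor in both arrays, and 5 stayed below it in both. A gene is represented by its brightest probe set, and all 10 genes were above the floor in both arrays by that probe set. Each difference is the log2 signal of the stretched minus that of the non-stretched array, so 2-fold is 1.

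The arrays were used on their deposited scale, on which their medians differed by -0.02 on the log2 scale, and hybridisation spike-ins had a median difference of -0.11. The 3'/5' signal ratios of the ACTB control were 1.04 and 1.01 and those of the GAPDH control 0.88 and 0.86 (non-stretched and stretched). All 9 epithelial markers were measured, with a summed signal of 64696 without stretch and 60475 with it, and ELF3 and CFTR among them were lower by 2-fold or more. Of 8 fibroblast markers 3 were measured, of 7 endothelial markers 1, and of the 6 leukocyte markers named on the array 4. Signals summed over all named markers of a list, those below the floor included, were 264.0 and 209.2 for fibroblasts. They were 127.1 and 106.6 for endothelium and 1389 and 1621 for leukocytes. Most of the leukocyte sum was LYZ, lysozyme, which airway gland cells also make. The measured fibroblast markers were COL1A1 (126.0 and 105.5), DCN (45.1 and 39.2) and COL1A2 (28.8 and 14.3), and the endothelial one was PECAM1 (57.7 and 51.3). Besides LYZ, the measured leukocyte markers were CD14 (78.6 and 55.1), ITGAM (35.3 and 34.9) and CD3E (25.8 and 30.3). Those below the floor in both arrays included PTPRC, the pan-leukocyte gene, VWF and CDH5 of endothelium and LUM and PDGFRB of fibroblasts. In RNA from a whole culture, fewer cells with a transcript and less of it per cell cannot be told apart.

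Most of the 10 genes were lower in the stretched array. By the brightest probe set 7 were lower by 2-fold or more (CCNG2, KLHL24, YPEL3, PIK3IP1, FBXO32, YPEL5 and BCL6), 1 was higher by that much (TXNIP), and FOXO1 and FOXO3 lay within 2-fold on opposite sides of 0. The median difference over the 10 genes was -1.22, beside 0.01 over all measured genes. Of all measured genes, 7.49% were lower and 7.78% higher by 2-fold or more. Since the genes were picked with these differences known, nothing is read from that contrast. Among the 32 measured probe sets, 16 were lower and 1 was higher by 2-fold or more and 15 lay in between, beside 6.48% lower and 8.66% higher of all measured single-gene probe sets. The SD of a single probe set's difference was 0.36, estimated from 5818 genes for which 2 or more probe sets exceeded the floor in each array. Only the 2 brightest such probe sets of each gene entered that SD. It covers probe noise and isoforms and not the variation between cultures.

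**Figure D1:**
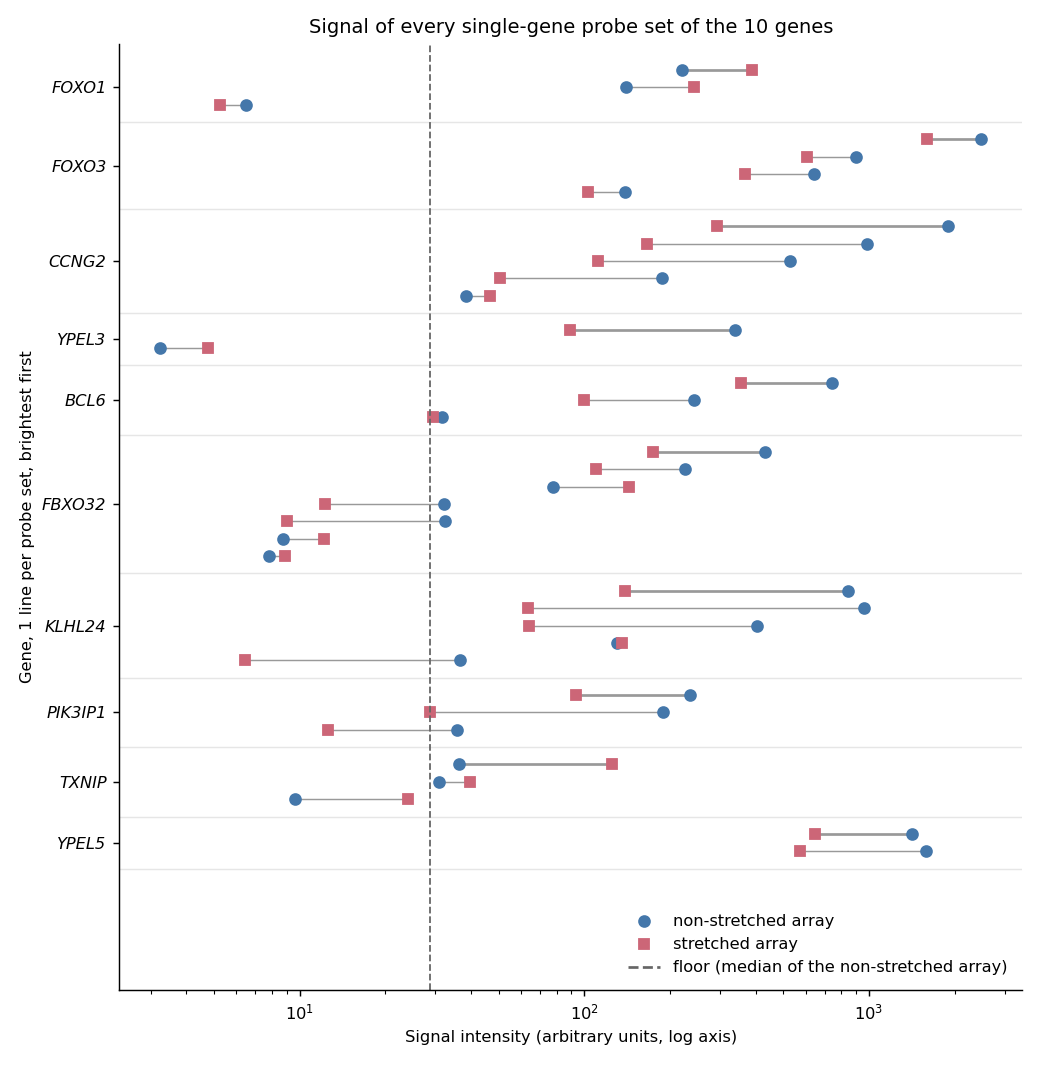
Signal intensity (log axis, arbitrary units) of the 37 single-gene probe sets of the 10 genes, 1 line each, in the non-stretched (circles) and stretched array (squares); the dashed line is the floor of 28.7. The squares lie left of the circles for most probe sets above the floor, while FOXO1 and TXNIP run the other way.

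FOXO1 was higher in the stretched array. Its brightest probe set went from 219.7 without stretch to 389.2 with it, 1.77-fold higher. The next went from 140.7 to 243.6, a log2 difference of 0.79 against 0.82 for the brightest. Both stood apart from 0 by more than the probe-set SD and differed from each other by 0.03. The third probe set was below the floor in both arrays, at 6.48 and 5.25. All 3 have the ending _s_at, which marks probes that can bind transcripts of related genes.

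FOXO3 was lower by a smaller and even amount. Its brightest probe set went from 2482 to 1596, 1.56-fold lower. The other 3 single-gene probe sets were lower too, at -0.57, -0.80 and -0.44. The SD of the difference over the 4 probe sets was 0.15. Of the 3 probe sets that list FOXO3B as well, 2 were above the floor, at -0.68 and -0.81. All 6 FOXO3 probe sets above the floor therefore lay between -0.81 and -0.44, and none reached 2-fold. The FOXO3 and FOXO1 differences lay 1.46 apart, 2.86 times the SD of 0.51 expected between 2 probe sets of the same gene.

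CCNG2, cyclin G2, an atypical cyclin whose expression is high in resting cells and which can halt the cycle, had the lowest difference of the 10 genes by the brightest probe set. Its brightest probe set went from 1897 to 292.8, 6.48-fold lower and 59th from the lowest of 13453 genes. The next 3 probe sets went from 987.8 to 166.4, from 528.6 to 111.8 and from 188.0 to 50.6, at log2 differences of -2.57, -2.24 and -1.89. These 4 probe sets were each at least 3.71-fold lower, and the difference shrank as the signal fell. The fifth was near the floor in both arrays, at 38.3 and 46.7, and differed by 0.28 the other way. Averaged over all 5 probe sets the difference was -1.82, less far from 0 than the averages of YPEL3 (-1.92) and KLHL24 (-1.90), and the median over its probe sets was -2.24, beside -2.60 for KLHL24. CCNG1 and CCNI, related cyclins, were at 0.10 and -0.69.

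YPEL3 and YPEL5 belong to the yippee-like family of small zinc-binding proteins, and YPEL3 can bring on growth arrest when overexpressed. YPEL3 went from 337.2 to 89.3, 3.77-fold lower. Its other probe set was below the floor in both arrays, at 3.24 and 4.77, so this difference rests on 1 probe set. The 2-fold call ends when the floor is raised to the 75th percentile (-0.44). YPEL5, a subunit of the CTLH ubiquitin ligase complex, was lower in both of its probe sets. The first went from 1417 to 646.4 (2.19-fold lower) and the second from 1586 to 572.9 (2.77-fold lower). These probe sets are almost equally bright and both have the ending _s_at. Of the relatives, YPEL2 was 5.74-fold lower by 1 measured probe set (283.2 to 49.3), and YPEL4 was below the floor in both arrays. YPEL1 was at -0.57 by its brightest probe set (49.5 to 33.4), and its 3 measured probe sets ran from -1.89 to -0.57.

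BCL6, a zinc-finger repressor that FOXO factors induce in lymphoid cells, was lower by just over 2-fold. Its brightest probe set went from 743.4 to 356.6, a log2 difference of -1.06, and the next from 242.7 to 99.8, at -1.28. The third lay at the floor, at 31.5 and 29.5. The call ends when the arrays are centred on the spike-ins (-0.95) or the probe sets are averaged (-0.81). None of the 8 measured corepressors and partners of BCL6 differed 2-fold by the brightest probe set, and their median was 0.02. Of all measured genes 7.49% were lower and 7.78% higher by 2-fold or more, so nothing is read from that count. The most different by the brightest probe set were TBL1X at -0.38 (range over its 5 probe sets -0.94 to 0.26) and HDAC3, the deacetylase of the NCOR complexes, at 0.38. SIN3A was at -0.13 by its brightest, and its 3 measured probe sets ran from -0.13 to 1.10.

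FBXO32 and KLHL24 are substrate receptors of cullin ubiquitin ligases. FBXO32 (atrogin-1) is a textbook FOXO target in wasting muscle. Its brightest probe set went from 431.6 to 174.6, 2.47-fold lower, and the next from 226.2 to 109.9, 2.06-fold lower. Another, with the ending _s_at, ran the other way, from 77.4 to 143.4, which is 1.85-fold higher and 2.20 away from the brightest on the log2 scale. A further 2 exceeded the floor without stretch alone, at 32.1 and 32.3, and 2 were below it throughout. FBXO32 thus read lower in its bright probe sets and not in all. The mean over its 5 measured probe sets was -0.36 and their median -0.19. The 2 seen without stretch alone enter these at -0.18 and -0.19, since their stretched values were set to the floor. Without a floor they differed by -1.38 and -1.84, so the mean and median depend on the floor. Raising the floor to the 75th percentile gave -0.79. The call thus ends with the mean, the median and the raised floor. Its relative FBXO25 was 2.00-fold lower by 1 measured probe set (543.9 to 271.6).

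KLHL24, a BTB-kelch protein that directs keratin 14 for degradation in skin, was lower in its 3 brightest probe sets. The one with the highest mean signal went from 842.5 to 138.7, 6.07-fold lower. The second went from 961.7 to 63.7, 15.1-fold lower and the lowest difference of all member probe sets. The third went from 403.7 to 64.1, 6.30-fold lower. The fourth read 130.2 and 135.8 and differed by 0.06, although it was well above the floor. Its ending, _x_at, marks probes that can bind unrelated transcripts. The fifth was at 36.6 in the non-stretched array and below the floor in the stretched array. Its value of -0.37 is therefore a bound set by the floor, and it was -2.51 without a floor. The difference was -1.90 averaged over the 5 probe sets and -1.76 with a floor at the 75th percentile.

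PIK3IP1, a membrane protein that binds PI3K and lowers its activity, was lower in all 3 probe sets. The brightest went from 235.9 to 93.9, 2.51-fold lower. The second went from 189.5 to 28.8, just above the floor, at a log2 difference of -2.72. The third went from 35.6 to below the floor. The gene's difference became 0.08 when the floor was raised to the 75th percentile, because the non-stretched value of 235.9 lay barely above that floor (231.1) and the stretched value was set to 249.0. Of the 9 other measured antagonists of PI3K and AKT, none differed 2-fold by the brightest probe set, and their median was -0.21. Of all measured genes 7.49% were lower and 7.78% higher by 2-fold or more, so nothing is read from that count. Over their measured probe sets PPP2R2A ran from 0.34 to 1.07 and INPP4B from -0.19 to 1.02.

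TXNIP, which binds thioredoxin and slows glucose uptake, was higher in the stretched array. Its brightest probe set went from 36.4 to 124.9, 3.44-fold higher and 278th from the highest of 13453 genes. The second went from 30.9 to 39.7, a difference of 0.36, and the third was below the floor in both arrays, at 9.62 and 24.1. Both measured probe sets read higher in the stretched array, and both were dim in the non-stretched array, near the floor. All 3 have the ending _s_at, so no TXNIP value is left without such probe sets, and none with a floor at the 75th percentile. The mean of both measured probe sets was 1.07. The relatives ARRDC3 and ARRDC4, arrestin-domain proteins of the same family, stood apart from each other. ARRDC3 was 8.03-fold lower (468.2 to 58.3) and ARRDC4 was at 0.66 (85.4 to 135.1), each by 1 probe set. Over all 12 measured relatives of the 10 genes, 4 were lower and 0 higher by 2-fold or more, beside 7.49% and 7.78% of all measured genes, and the median was -0.52.

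**Figure D2:**
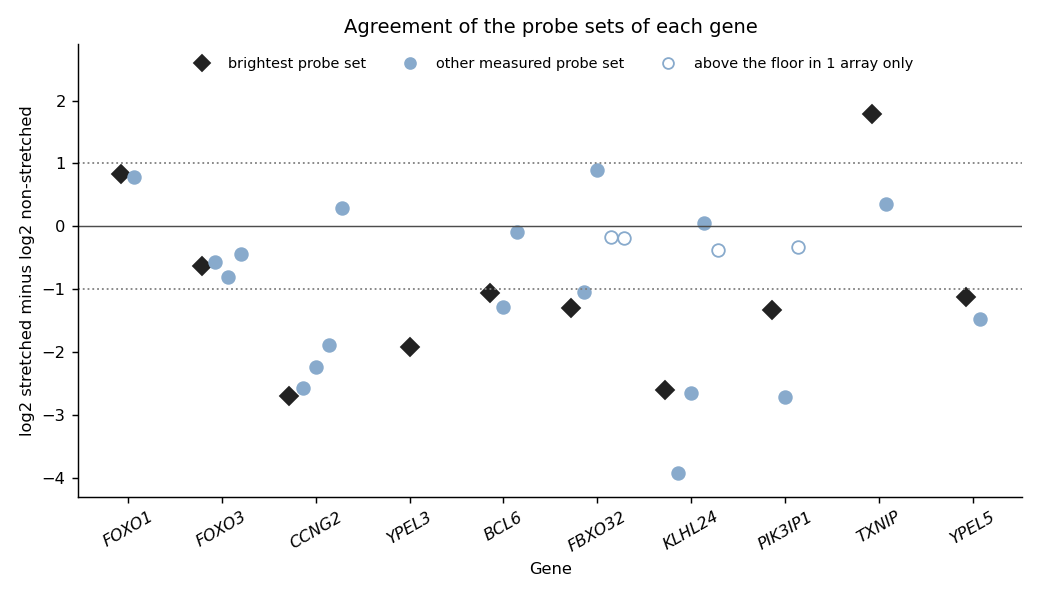
Log2 difference, stretched minus non-stretched, of the 32 measured probe sets by gene; diamonds are the brightest probe set of a gene, circles the others, open circles those above the floor in 1 array only, and dotted lines mark 2-fold. FOXO1, FOXO3 and YPEL5 have closely grouped probe sets, while CCNG2, FBXO32 and KLHL24 each have 1 probe set above 0 beside lower ones.

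The probe sets of a gene agreed in direction for 6 of the 9 genes with at least 2 measured probe sets, beside 67.6% of all such genes. The exceptions were CCNG2, FBXO32 and KLHL24, each with 1 probe set above 0. YPEL5 alone had at least 2 measured probe sets that were all lower by 2-fold or more, beside 2.66% of all such genes. Of the 22 measured probe sets that do not represent their gene, 9 differed from the brightest by more than 1.02. That is 2 times the SD of 0.51 between probe sets of a gene. The SD comes from the 2 brightest probe sets of each gene and was not estimated for dimmer ones. The same share over all genes was not computed, so the count is not read as unusual disagreement. Among the 9 are the FBXO32 and KLHL24 probe sets above the floor without stretch alone, whose differences are bounds set by the floor. Without a floor they read -1.38 and -1.84 (FBXO32, brightest -1.31) and -2.51 (KLHL24, brightest -2.60), so they are no sign of disagreement. By the brightest probe set, in order from the lowest difference, the genes ran CCNG2, KLHL24, YPEL3, PIK3IP1, FBXO32, YPEL5, BCL6, FOXO3, FOXO1 and TXNIP. Of the 9 steps between neighbours in that order, 5 were smaller than 0.51. CCNG2 and KLHL24 could not be separated (0.09 apart), nor could the run from PIK3IP1 to BCL6 (0.02, 0.17 and 0.07 between neighbours), nor BCL6 from FOXO3 (0.42). The step from FOXO3 to FOXO1 was the only one above 1.02. Since the SD of 0.51 leaves out variation between cultures, the larger steps do not show that genes are separated either.

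**Figure D3:**
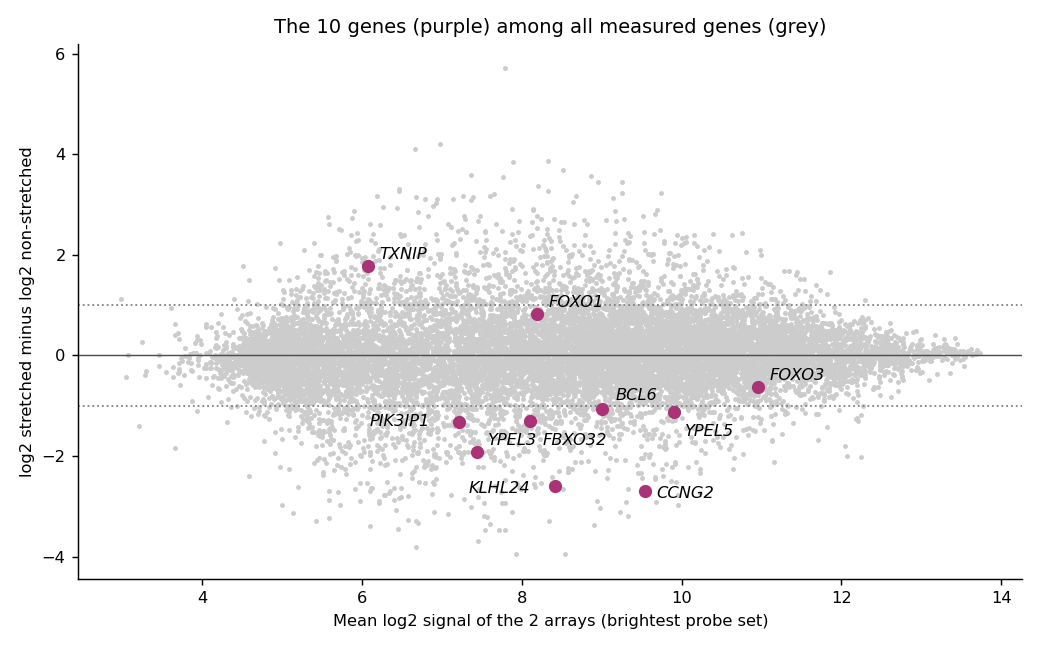
Log2 difference, stretched minus non-stretched, against mean log2 signal for the 13453 measured genes (grey) and the 10 genes described here (purple), each by its brightest probe set. CCNG2 (-2.70) and KLHL24 (-2.60) lie near the lower edge of the cloud at middle signal. TXNIP (1.78) lies in its upper part at low signal, 278th from the highest.

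The other FOXO factors lay below 0, in contrast to FOXO1. FOXO4, which was chosen by the rule for list genes, went from 107.2 to 30.5, 3.52-fold lower to just above the floor, by 1 probe set. FOXO6 was at -0.47, from 40.5 to 29.3, near the floor in both arrays. Of the upstream enzymes, 11 PI3K, AKT and SGK genes were measured. Among them 2 were lower and 0 higher by 2-fold or more, beside 7.49% and 7.78% of all measured genes, and their median was -0.09. PIK3R3, a regulatory subunit of PI3K, was 3.15-fold lower (687.1 to 218.4, with -0.46 in its other probe set). SGK1, a serum-induced kinase that phosphorylates FOXO3, was 2.37-fold lower by 1 measured probe set (507.8 to 214.2). AKT1 was at 0.43 by its single measured probe set. AKT2 was at 0.47 by its brightest, but its 7 measured probe sets ran from -0.51 to 1.20 and gave it no settled sign.

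Of the genes for proteins that modify or carry FOXO factors, 22 were measured. Among them 1 was higher and 0 were lower by 2-fold or more, with a median of 0.16. Of all measured genes 7.78% were higher and 7.49% lower by that much, so nothing is read from these counts. SKP2, the ubiquitin ligase subunit that targets FOXO1 and the inhibitor p27 for degradation, was 2.72-fold higher (402.7 to 1097), and its other probe set was at 2.13. The 6 YWHA (14-3-3) genes, whose proteins hold phosphorylated FOXO in the cytoplasm, lay between 0.09 and 0.83 by the brightest probe set. Over their measured probe sets YWHAZ ran from -0.20 to 0.41 and YWHAB from -0.03 to 0.09, so neither has a settled sign. All measured probe sets of the other YWHA genes were higher in the stretched array.

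Of other genes known as FOXO targets, 30 were measured. Among them 9 were lower and 1 was higher by 2-fold or more, beside 7.49% lower and 7.78% higher of all measured genes, and 20 lay within 2-fold. In all, 26 were below 0, and the median was -0.62 beside 0.01 over all genes. The autophagy gene GABARAPL1 was 4.98-fold lower (852.2 to 171.3), with its probe sets at -2.31 and -2.38. DEPP1, a gene induced by FOXO in fasting, was 4.64-fold lower (608.8 to 131.2). TNFSF10, a death receptor ligand, went from 2026 to 435.5. KLF2, a zinc-finger factor of quiescent lymphocytes and endothelium, was 6.53-fold higher (61.0 to 398.0). Its value rests on 1 measured probe set, with the ending _s_at. The cyclin-dependent kinase inhibitors CDKN1A and CDKN1B were at -0.55 and -0.53, under 2-fold. FASLG, TRIM63, G6PC1, PCK1 and S1PR1 lay below the floor in both arrays.

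A further list of arrest and quiescence genes, which shares CDKN1B and RBL2 with the FOXO targets, held 18 measured genes. Of these, 5 were lower and 0 higher by 2-fold or more, beside 7.49% and 7.78% of all measured genes, and 13 lay within 2-fold. In all, 17 were below 0, and the median was -0.45 beside 0.01 over all genes. TP53INP1, a p53-induced autophagy and arrest gene, was 9.79-fold lower to just above the floor (319.1 to 32.6), by 1 measured probe set. CDKN1C, the inhibitor p57, was 3.91-fold lower, with its 4 probe sets between -1.97 and -1.71. CDKN2B, the inhibitor p15, was 3.25-fold lower by the brightest of its probe sets and at -0.14 by the other. DDIT4, an inhibitor of mTORC1, was 3.22-fold lower (5980 to 1858), by 1 measured probe set.

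Subunits of the DREAM complex, which represses cell-cycle genes in resting cells, included 4 genes that were higher by 2-fold or more and 0 that were lower, of 12 measured. Of all measured genes 7.78% were higher and 7.49% lower by that much. The median of the 12 was 0.31, and 8 of them lay within 2-fold. TFDP1, the E2F partner, was 3.16-fold higher (366.1 to 1155), and RBL1 (p107) was 3.11-fold higher (78.0 to 242.3) with 0.44 in its other probe set. LIN9 and LIN54 exceeded the floor under stretch alone and were at least 3.10-fold and 2.10-fold higher, each by 1 measured probe set. RBL2 (p130), the pocket protein of resting cells and itself a FOXO target, was at -0.43. By the brightest probe set all 12 proliferation markers were higher by 2-fold or more, with a median of 1.88. Among them were E2F1 (8.73-fold), MYBL2 (6.42-fold), FOXM1 (4.87-fold) and MKI67 (4.84-fold). The lowest measured probe set was at 0.36 for TOP2A and at 0.83 for BUB1, both under 2-fold. What part this difference in cycling transcripts has in the values of the 10 genes was not tested.

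Among partners and regulators of TXNIP, the 16 measured genes of thioredoxin and of the MLX and MAX network had a median of 0.002. ARRDC3 and MNT were lower by 2-fold or more and no gene was higher by that much, beside 7.49% and 7.78% of all measured genes. MNT, a repressor that competes with MYC for MAX, was 2.26-fold lower by 1 measured probe set (789.1 to 349.0). MLX, the partner of the glucose-sensing factors, was at 0.98, and those factors, MLXIP and MLXIPL, were at 0.43 and 0.25. Thioredoxin itself, TXN, was at 0.31, and MYC at 0.32.

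**Figure D4:**
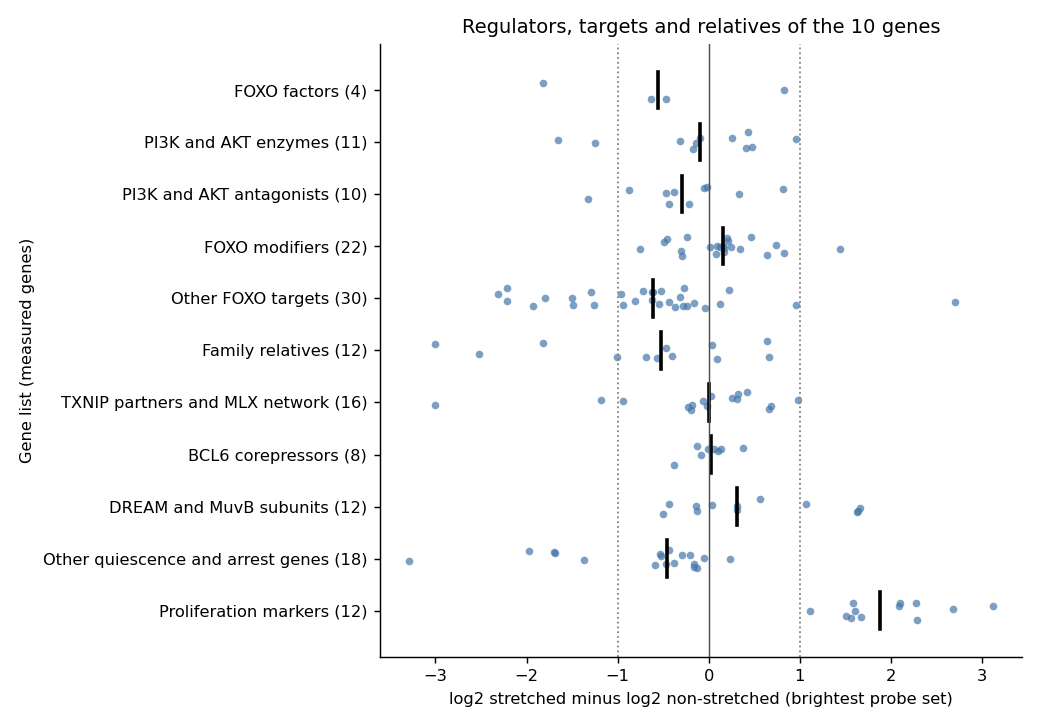
Log2 difference, stretched minus non-stretched, of the measured genes of each related list (points, brightest probe set) with the list's median (bar); the number of measured genes stands after each name, dotted lines mark 2-fold, and the lists share some genes with each other and with the 10 genes. The medians run from -0.62 for the other FOXO targets to 1.88 for the proliferation markers.

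Promoters of 9 of the 10 genes (15 annotated starts) were matched by gene ID in RefSeq's table for GRCh38.p14. The table covers 250 bases before to 50 bases after a start. FBXO32 had no promoter there, so it was not searched for any element. The core element bound by FOXO factors, GTAAACA, was searched on both strands. It occurred in 3 of the 9 genes, TXNIP, YPEL3 and PIK3IP1, beside 4.19% of the 27305 genes and 3.42% of the 35116 promoters in the table. Of these 3 genes TXNIP was higher and the others lower in the stretched array. CCNG2 and KLHL24, with the lowest differences by the brightest probe set, did not hold these letters in the window. TXNIP is shown because it alone of the 2-fold different genes was higher while carrying the same element as lower ones. The sequence is that of the 250 bases before its upstream start (chr1:145996580-145996829, minus strand, GRCh38.p14), with GTAAACA at positions -124 to -118 from the start and the letters of a carbohydrate response element, CACGAG repeated after 5 bases, at -88 to -72 in capitals.
TXNIP: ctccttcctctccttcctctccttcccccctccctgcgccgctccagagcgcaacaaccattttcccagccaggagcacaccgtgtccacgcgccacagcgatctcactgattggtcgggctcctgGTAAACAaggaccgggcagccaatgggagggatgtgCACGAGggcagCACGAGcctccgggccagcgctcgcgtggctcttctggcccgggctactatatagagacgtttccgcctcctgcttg
The carbohydrate response element is where MLX and its glucose-sensing partners bind, and the letters searched for were those of TXNIP's own element. The match in TXNIP was therefore fixed by the choice of letters and is no finding. The same arrangement occurred in 2 of the 35116 promoters, the other being that of KCTD5, which was at 0.42.

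The element in the 2 lower genes lay at or after the annotated start, and it is shown with its surroundings so that its letters can be set beside those of TXNIP. In YPEL3 it began at the start itself, at positions 1 to 7 (window chr16:30096196-30096225, minus strand). In PIK3IP1 it lay on the opposite strand at positions 17 to 23 after the downstream start (window chr22:31292455-31292484, minus strand), so the capitals read TGTTTAC. KLHL24 held the insulin response core CAAAACA on the opposite strand at -32 to -26 (window chr3:183635579-183635608, plus strand), which occurred in 4.92% of all promoters and did not overlap GTAAACA there. Each window is 30 bases with the match in capitals.
YPEL3: gctgggctcggtGTAAACAagtccaggcgc
PIK3IP1: ctaaagagaggcTGTTTACcagaacagcat
KLHL24: gctgacgctcagTGTTTTGgcccggacggt
CCNG2 held the E-box CACGTG at -30 to -25, found in 7.26% of all promoters, and no other of the 9 genes did. A match of letters describes the sequence and does not show binding.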

How the data were processed

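Total RNA from 1 stretched and 1 non-stretched Calu-3 culture was purified on spin columns and 6 µg was labelled as biotinylated cRNA for Affymetrix whole-genome arrays, per the labels' protocols. The deposited values are 1 linear signal intensity per probe set and array; their summarisation, scaling and software are not stated in those labels. Names come from the platform annotation, with symbols updated through the gene ID to RefSeq, and those that list several genes were left out of gene values. Log2 values, the floor, differences, ranks and motif matches were computed with Python 3.11.15, numpy 2.4.6, pandas 2.3.3 and, for loess (fraction 0.3), statsmodels 0.14.6; the scripts were tested on simulated data. With 1 array per group there is no test, SD between cultures or p-value, and the number of arrays limits the precision. The members, gene lists and motifs were chosen with earlier results of these data known. List genes named are those at least 2-fold different, up to 4 per list, or the 2 most different where none is. Cell type marker lists are given by counts. Their measured non-epithelial markers are all named, and only some of those below the floor. Others named were chosen after their values were seen. Among them are both kinase inhibitors, AKT, MLX and thioredoxin genes, RBL2, FOXO6, YPEL relatives, CCNG1, CCNI and ARRDC4. So are PPP2R2A, INPP4B, SIN3A, TOP2A and BUB1. Alternatives were 4 other scalings, 2 other floors, averaged probe sets, probe sets without related endings, a 1.5-fold threshold and, added after seeing the data, the FOXO3B probe sets. A difference is called moved where it changes by over 0.36, the probe-set SD.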

Additional observations from a re-analysis of the deposited data

How the results depend on the processing

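The members' differences kept their sign in 85 of 86 recomputed values, the exception being PIK3IP1, whose log2 difference came to 0.078 under a floor at the 75th percentile. They moved by less than 0.36 in 75, by more in 10 with the sign kept, and reversed in that 1. Under that floor, where TXNIP is no longer measured, the genes at least 2-fold higher and lower were 0 and 4, the probe sets 0 and 8, and the median over the member genes -0.79. With probe sets of either related ending, _x_at or _s_at, left out, which keeps 7 genes and 18 probe sets, no gene or probe set was 2-fold higher (0 and 0), and 10 probe sets were lower. Probe sets at least 2-fold higher numbered 2 with no floor and 2 when centred on the spike-ins. At a threshold of 1.5-fold, 2 genes and 4 probe sets were higher. Every other count of members stayed within 1.5 times its value. The median of all genes shifted to -0.10 when arrays were divided by their 75th percentile and to 0.12 when centred on the spike-ins, so differences of that size have no settled sign. With no floor all 10 members' differences stayed the same, and each of the 4 other scalings moved them by less than 0.36. The count of signs kept therefore says little on its own. The dim TXNIP signals limit its fold, and variation between cultures was not measured.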
